A study of Mus musculus with 38 samples.

Results

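Whole bone marrow from mice given zoledronic acid (ZA) was compared with whole bone marrow from mice given G-CSF, using 5 of the 38 RNA sequencing samples of the series. The members were chosen by their labels: ZA replicates 2 and 3, and G-CSF replicates 1, 2 and 3, of the whole marrow table. Genes at 0.1 TPM (a transcript level scaled for length and library size) or less in every library of one treatment were set apart. Their differences are described by levels, with no fold. Counts of genes passing the test and median changes include them unless said otherwise. All groups were labelled C57BL/6, 6 to 7 weeks old, and the protocols state female C57BL/6J mice. ZA marrow came from mice given zoledronic acid intraperitoneally at 100 µg/kg. G-CSF marrow came from mice given recombinant human G-CSF intraperitoneally at 50 µg/kg in 3 daily doses. Libraries from 2 other groups of the same table are shown beside them, 2 each: marrow from mice given both agents (called combined, with G-CSF begun 2 days after ZA) and marrow from untreated mice. The protocols also give this G-CSF course for nude mice, which lack a thymus, although no sample is labelled as nude. Replicates are numbered as biological replicates but not stated to be different animals; a p-value therefore reflects the variation among these libraries, which may be technical.

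ZA is a bisphosphonate that binds bone mineral and, once taken up by osteoclasts, blocks farnesyl diphosphate synthase, an enzyme of the mevalonate pathway that supplies the lipid anchors of small GTPases. G-CSF is a cytokine that acts on myeloid progenitors and neutrophils through its receptor Csf3r, raises the output of neutrophils and mobilises stem cells into the blood. Marrow holds developing neutrophils, monocytes, red cells, megakaryocytes and lymphocytes beside macrophages, osteoclasts and stromal cells. In RNA from whole tissue, fewer cells of a type and less RNA per cell cannot be told apart.

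The ZA libraries held 8288159 and 9234144 estimated counts, and the G-CSF libraries 10220590, 16152286 and 9205900. A count of 0 in one of them allows up to 3 counts, or 0.186 to 0.362 CPM before TMM scaling. Levels below are CPM (counts scaled to library size, by TMM) unless TPM is named. Log2 changes are ZA minus G-CSF ± standard error, with the Benjamini-Hochberg adjusted p of edgeR's quasi-likelihood test, and a gene is said to be called where that p was under 0.05. The marker genes fitted the labelled tissue: the erythroid genes summed to 358000 and 328000 TPM in ZA libraries, against 300000, 290000 and 280000 TPM in G-CSF libraries. In untreated replicate 1, small RNA genes took 39.1% of TPM, against 6.46% to 12.3% in the other 8 marrow libraries.

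Several genes that differ between mouse strains divided the groups, although every library was labelled C57BL/6. Of 12 strain-variable genes listed, 6 were tested, with 2 higher with ZA, 3 lower and 1 not called. Over all genes 2.99% were higher and 2.07% lower. H2-Ea-ps, a class II gene that C57BL/6 mice do not express, was at 0 TPM in both ZA libraries and at 1.33, 1.66 and 3.82 TPM in the G-CSF libraries. Ifi202b, an interferon-inducible gene that is also silent in C57BL/6, was at 0 TPM in both ZA libraries and at 2.51, 3.71 and 2.99 TPM in the G-CSF libraries. Both genes were present in the combined libraries (3.28 and 5.01 TPM for H2-Ea-ps, 4.28 and 11.2 TPM for Ifi202b) and at 0 in the untreated libraries. Nnt, the mitochondrial transhydrogenase that is partly deleted in C57BL/6J, had 21.5 and 22.3 CPM in ZA libraries, against 54.5, 59.2 and 62.6 CPM in G-CSF libraries (−1.42 ± 0.16, adjusted p = 0.000778). In sorted precursors (below), ZA replicates 3, 6 and 8 had Nnt at 9.56, 8.92 and 9.96 TPM, within the 7.49 to 10.7 TPM of G-CSF marrow. ZA precursor replicates 5 and 7, which carried whole-marrow levels of other genes (below), had Nnt at 2.11 and 2.62 TPM. Whether the cells sampled or another difference between these libraries set the level of Nnt was not tested. Genetic background and treatment therefore cannot be told apart in any value that follows.

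Of 14737 genes tested, 441 were higher with ZA (2.99%) and 305 were lower (2.07%). Every count of called list members below is to be read against these shares. Genes set apart made 40 of the higher and 97 of the lower calls. Without them 401 and 208 calls of this fit remain, and a refit without the genes set apart called 376 and 195. Fewer genes passed without any one of 4 of these libraries: 194 higher and 134 lower without ZA replicate 2, 254 and 187 without G-CSF replicate 1, and 227 and 179 without G-CSF replicate 2. Without ZA replicate 3 the counts were 294 higher and 272 lower. More genes passed without untreated replicate 1 (484 and 333) or 2 (501 and 335). On the TPM scale, tested with limma on log2(TPM + 1), 127 were higher and 328 lower, so the share of calls that were higher was 27.9% in place of 59.1%. The median change of all genes was −0.27 on that scale and −0.01 in the edgeR fit, and TPM results are to be read against it.

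Among the 12 protein-coding genes with the largest rise, the actin-binding villin-like gene Vill (ENSMUSG00000038775, chromosome 9, 119052778 to 119071525, mm10) came first. It had 97.9 and 33.1 CPM in ZA libraries, against 0.289, 0.0579 and 0.189 CPM in G-CSF libraries (8.56 ± 0.68, adjusted p = 0.000182). Trim12a, a tripartite motif gene (ENSMUSG00000066258, chromosome 7, 104299894 to 104315466), had 43.6 and 45.4 CPM with ZA, against 1.64, 1.62 and 0.567 CPM with G-CSF (5.08 ± 0.33, adjusted p = 3.43e-05). The adaptor Nckipsd had 59.2 and 48.6 CPM with ZA and 2.99, 2.32 and 4.26 CPM with G-CSF. Acvrl1, a receptor of the BMP family, had 59.1 and 53.0 CPM with ZA and 6.74, 3.30 and 4.73 CPM with G-CSF (3.52 ± 0.36, adjusted p = 0.000507). Tspo2, a membrane protein of maturing red cells, had 165 and 110.0 CPM with ZA, against 16.3, 13.7 and 12.0 CPM with G-CSF (3.30 ± 0.22, adjusted p = 3.43e-05). That the lowest ZA library lay above the highest G-CSF library was a condition for choosing these 12 genes, not a separate result. The others in the group were the ribosomal genes Rps2 and Rps26, the class II gene H2-Eb1, the liprin Ppfia4, the myeloid receptor Cd300ld, Ccdc92b and the purine nucleoside phosphorylase Pnp2, with log2 changes from 3.21 to 4.83.

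The 12 protein-coding genes with the largest fall began with Tpm3-rs7, a gene related to the tropomyosin Tpm3. It had 2.49 and 3.74 CPM in ZA libraries, against 477, 499 and 480.0 CPM in G-CSF libraries (−7.26 ± 0.51, adjusted p = 8.58e-05). The lysozyme Lyz1 (ENSMUSG00000069515, chromosome 10, 117287797 to 117292868) had 6.35 and 6.00 CPM with ZA and 1020, 945 and 659 CPM with G-CSF (−7.14 ± 0.27, adjusted p = 1.18e-06). Eno1b, an enolase, had 0.967 and 2.61 CPM with ZA, against 226, 190.0 and 234 CPM with G-CSF. These 3 genes and Ly6c1 have a near-identical copy elsewhere in the genome, so the split of reads between them is uncertain. Of those without one, Tbata had 1.10 and 1.13 CPM with ZA and 23.1, 43.0 and 36.1 CPM with G-CSF (−4.91 ± 0.36, adjusted p = 7.35e-05). Ugt8a, which makes galactosylceramide, had 1.24 and 1.13 CPM with ZA, against 26.4, 27.5 and 19.6 CPM with G-CSF (−4.36 ± 0.35, adjusted p = 0.000131). Groups that do not overlap were a condition for choosing these 12 genes, not a separate result. The remaining 6 were Btnl2, H2-Q1, Mst1r, Rap1gap, Ckm and Gzma, with changes from −3.84 to −2.69. Mst1r, Rap1gap and Ckm were each lost without ZA replicate 2 or without ZA replicate 3 (adjusted p = 0.0618 to 0.170), and Mst1r and Rap1gap also without any single G-CSF library (adjusted p = 0.0527 to 0.108). Mst1r was not called either without combined replicate 1 (adjusted p = 0.0755) or 3 (0.0802).

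**Figure D1:**
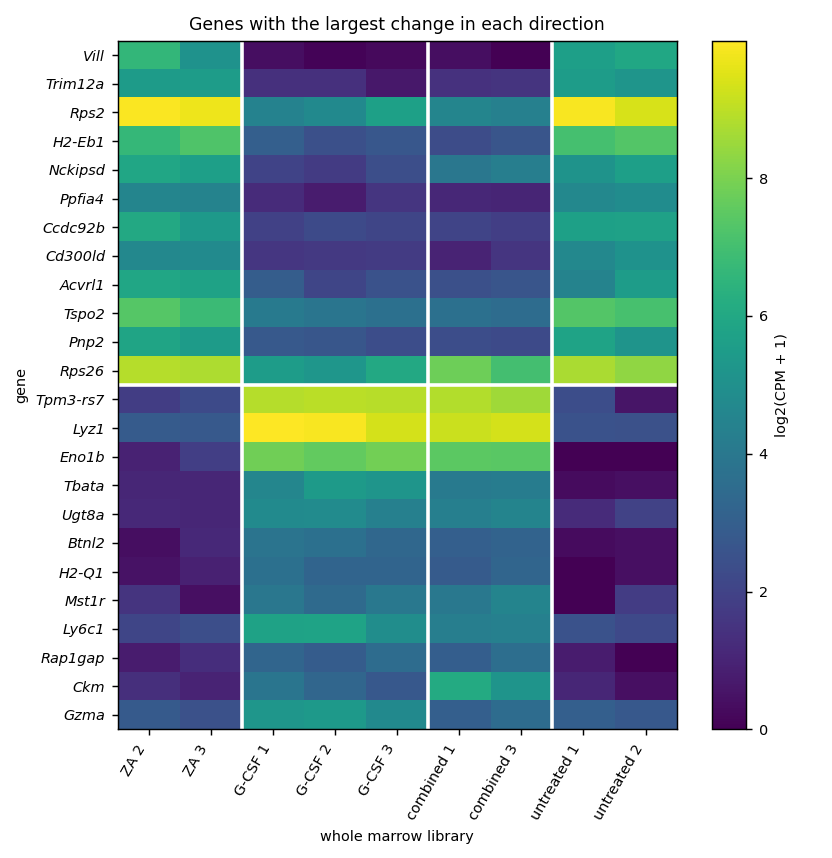
Level of the 24 protein-coding genes with the largest change, as log2(CPM + 1) by colour, with genes in rows and the 9 whole marrow libraries in columns (ZA, G-CSF, combined, untreated). Vill stood at 97.9 and 33.1 CPM in ZA libraries and under 1 CPM in all 3 G-CSF libraries, and in most genes the combined columns resemble the G-CSF columns and the untreated columns the ZA columns.

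In the pathway that ZA blocks, Fdps, which encodes farnesyl diphosphate synthase (ENSMUSG00000059743, chromosome 3, 89093588 to 89101959), had 48.7 and 38.2 CPM in ZA libraries, against 49.8, 46.8 and 46.1 CPM in G-CSF libraries (−0.13 ± 0.17, adjusted p = 0.751). These ranges overlap. Of 24 mevalonate and cholesterol genes none was higher and 2 were lower (median −0.08, against a median of −0.01 and 2.07% lower over all genes). One of them was Hsd17b7, a reductase of sterol synthesis, at 4.70 and 5.89 CPM with ZA and 11.3, 13.2 and 8.98 CPM with G-CSF (−1.07 ± 0.26, adjusted p = 0.0455). It was not called in 8 of the 9 fits that left out a library (adjusted p = 0.0530 to 0.281; G-CSF replicate 3 was the exception). Aacs, the cytosolic enzyme that activates acetoacetate for lipid synthesis, had 76.5 and 90.5 CPM with ZA and 66.8, 67.3 and 58.8 CPM with G-CSF (0.38 ± 0.19, adjusted p = 0.339). Of 10 genes of protein prenylation, which attach these lipids to proteins, none was called (median −0.05).

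On the side of G-CSF, the receptor gene Csf3r (ENSMUSG00000028859, chromosome 4, 126024550 to 126044440) had 262 and 187 CPM in ZA libraries, against 165, 167 and 190.0 CPM in G-CSF libraries (0.37 ± 0.20, adjusted p = 0.387). The groups overlap in this gene. Socs3, which limits signalling from the receptor, had 9.80 and 7.93 CPM with ZA and 5.01, 4.17 and 20.5 CPM with G-CSF (−0.15 ± 0.65, adjusted p = 0.938), a range within G-CSF marrow wider than the difference. Of 18 genes of the receptor's signalling 1 was higher and none lower (median 0.10). It was Cish, an inhibitor of STAT5 signalling, at 15.5 and 15.6 CPM with ZA and 1.45, 3.82 and 1.42 CPM with G-CSF (2.75 ± 0.50, adjusted p = 0.0131, but 0.0659 without ZA replicate 2). The other 17 members, among them Jak2, Stat3 and Gfi1, had changes from −0.47 to 0.40.

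Of 28 interferon response genes 11 were higher in ZA marrow than in G-CSF marrow, none was lower and 17 were not called. These genes are switched on by type I interferons through their receptor and encode antiviral proteins. The median change of the list was 0.90 (all genes: 2.99% higher, median −0.01). Rsad2, an antiviral enzyme also called viperin (ENSMUSG00000020641, chromosome 12, 26442746 to 26456452), had 1130 and 823 CPM in ZA libraries and 235, 246 and 193 CPM in G-CSF libraries (2.12 ± 0.19, adjusted p = 0.000251). Oas3, a sensor of double-stranded RNA (ENSMUSG00000032661, chromosome 5, 120753098 to 120777661), had 162 and 126 CPM with ZA, against 39.4, 29.1 and 24.9 CPM with G-CSF (2.21 ± 0.23, adjusted p = 0.000507). Irf7, the transcription factor that amplifies interferon production, had 139 and 98.4 CPM with ZA and 31.9, 25.5 and 22.5 CPM with G-CSF (2.16 ± 0.24, adjusted p = 0.000743). In each of the 3 the lower ZA library was at least 3 times the highest G-CSF library. The ubiquitin-like modifier Isg15 had 181 and 112 CPM with ZA and 47.8, 38.4 and 16.5 CPM with G-CSF (2.10 ± 0.38, adjusted p = 0.0154). Cmpk2, the nucleotide kinase gene beside Rsad2, changed by 1.32 ± 0.19 (adjusted p = 0.00385, but 0.0512 without ZA replicate 2). The other called members were Ifit1, Oasl1, Irf9, Oas1a (which has a near-identical copy), Mx1 and Usp18, with changes from 0.89 to 2.26.

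Other interferon genes were not called. The log2 change was 0.34 ± 0.24 for Ifit2 (adjusted p = 0.509) and −0.97 ± 0.62 for Ifi44 (adjusted p = 0.460), neither of them called. Some interferon-inducible genes outside the list ran the other way and are set apart, like Ifi202b above; they were chosen after their values were seen. Ifi44l was at 0 and 0.0366 TPM in ZA libraries and at 2.21, 3.32 and 3.28 TPM in G-CSF libraries, and the guanylate-binding protein gene Gbp2b was at 0.0182 and 0.0321 TPM in ZA libraries and at 4.14, 5.43 and 2.25 TPM in G-CSF libraries. Rsad2, Oas3 and Irf7 stayed called whichever library was left out, while the number of members called was 3 with ZA replicate 2 left out, 7 and 6 with G-CSF replicate 1 or 2 left out in that order, and 8 to 10 with any other library left out. On the TPM scale 4 members were higher and none lower, with a median of 0.43 against −0.27 for all genes. The summed level of the list was 582 and 500.0 TPM in ZA libraries, against 330.0, 345 and 254 TPM in G-CSF libraries, without overlap. Rsad2 had 206 and 177 CPM in combined libraries and 941 and 1220 CPM in untreated libraries, so combined marrow lay near the G-CSF level and untreated marrow near the ZA level.

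**Figure D2:**
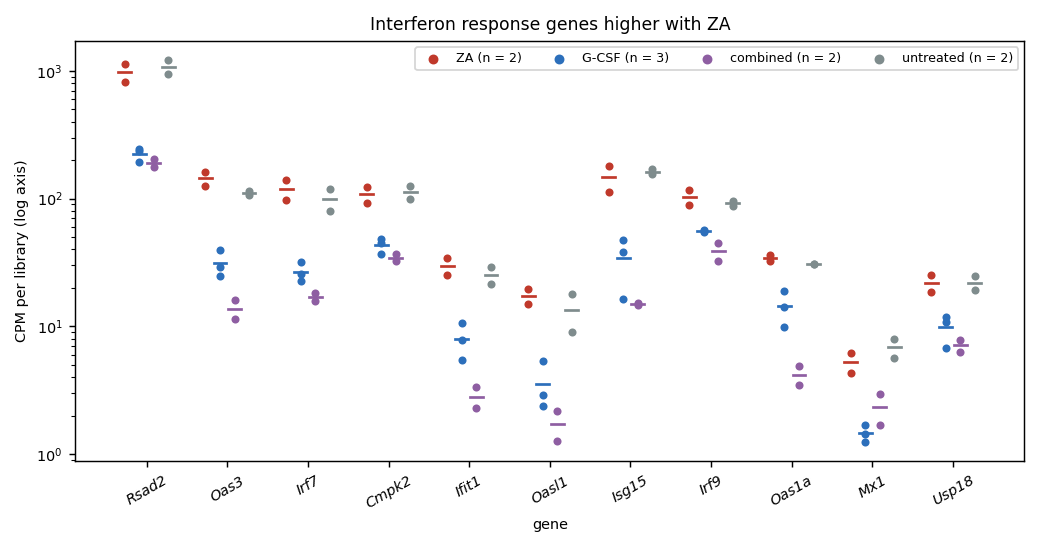
CPM on a log axis for the 11 interferon response genes higher with ZA, one point per library and a bar at each group's mean, with ZA first, then G-CSF, combined and untreated. For each gene both ZA points lie above all 3 G-CSF points, as for Rsad2 (1130 and 823 CPM, against 235, 246 and 193 CPM).

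The upstream sequences of Rsad2 and Oas3 are shown because these 2 genes had the lowest adjusted p of the list and interferon factors bind near such starts. Each run is the 250 bases before the gene's start, 5′ to 3′ on the gene's own strand, from RefSeq on GRCm38.p6 (chr12:26456453-26456702 for Rsad2 and chr5:120777660-120777909 for Oas3, both minus strand). Capitals mark matches, on either strand, to the letters GAAA, any 2 bases, and GAAA again.
Rsad2: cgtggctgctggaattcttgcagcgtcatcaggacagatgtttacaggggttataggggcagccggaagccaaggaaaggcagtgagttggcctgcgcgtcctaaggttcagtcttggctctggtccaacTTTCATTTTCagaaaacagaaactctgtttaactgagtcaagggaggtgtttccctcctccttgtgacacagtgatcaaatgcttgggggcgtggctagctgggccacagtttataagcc
Oas3: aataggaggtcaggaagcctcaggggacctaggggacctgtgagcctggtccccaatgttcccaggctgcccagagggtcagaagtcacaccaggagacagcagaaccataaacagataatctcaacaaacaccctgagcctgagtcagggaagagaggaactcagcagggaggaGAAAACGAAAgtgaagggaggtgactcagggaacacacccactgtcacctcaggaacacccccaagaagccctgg
The match begins 120 bases before the start in Rsad2, where it lies on the opposite strand, and 75 bases before it in Oas3. Of the 11 called members 9 had a full-length entry in the promoter table, and 5 of these 9 held such a match in their 250 bases. Of the 17 members not called, 11 had an entry and 4 held a match. Of all 27025 genes with an entry, 3.46% held one. A match describes letters in the window and is not a measured binding site. The list holds genes known for such elements, so its share says nothing of the treatments.

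Genes of the major histocompatibility complex on chromosome 17 moved in both directions. Class II molecules present peptides to helper T cells, and of 11 class II and related genes 2 were higher with ZA and none lower (median 0.33; 2.99% of all genes were higher). H2-Eb1, the beta chain of the I-E molecule (ENSMUSG00000060586, chromosome 17, 34305867 to 34316674), had 101 and 149 CPM in ZA libraries, against 7.13, 4.40 and 5.58 CPM in G-CSF libraries (4.46 ± 0.26, adjusted p = 1.77e-05). H2-Ob, a chain of a peptide-loading regulator, had 28.3 and 34.2 CPM with ZA and 2.79, 2.90 and 6.43 CPM with G-CSF (2.96 ± 0.33, adjusted p = 0.000821). The I-A chains H2-Aa (−0.65 ± 0.17, adjusted p = 0.0631) and H2-Ab1 (−0.19 ± 0.18, adjusted p = 0.649) and the invariant chain Cd74 (0.15 ± 0.20, adjusted p = 0.751) were not called. Of 16 class I and peptide-loading genes, which present peptides to cytotoxic T cells, 3 were higher and 3 lower (median −0.48). H2-D1 had 1090 and 1080 CPM with ZA and 2800, 2870 and 3340 CPM with G-CSF (−1.47 ± 0.16, adjusted p = 0.00066), and H2-K1 had 561 and 630.0 CPM with ZA and 866, 874 and 1050 CPM with G-CSF (−0.64 ± 0.14, adjusted p = 0.0338). H2-Q4 was lower too (−1.20 ± 0.19, adjusted p = 0.00692, but 0.0580 without ZA replicate 2). H2-T22 (2.15 ± 0.16), H2-T23 (2.40 ± 0.17, with a near-identical copy) and the loading factor Tapbp (0.91 ± 0.20) were higher. Leaving out 1 library gave 2 or 3 higher and 1 to 3 lower, with 1 lower without ZA replicate 2 and 2 lower without ZA replicate 3, G-CSF replicate 1 or 2, or either combined library. These genes vary between mouse strains, and whether reads of another haplotype were counted as fully as those of the reference was not tested.

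Of 10 primary granule genes of early neutrophils none was called (median −0.47), and 9 of the 10 had negative changes; myeloperoxidase, Mpo, had 1210 and 1200 CPM in ZA libraries, against 2080, 1630 and 1540 CPM in G-CSF libraries (−0.54 ± 0.19, adjusted p = 0.162). The primary granule list summed to 1460 and 1540 TPM in ZA libraries, against 2610, 2650 and 2650 TPM in G-CSF libraries, without overlap, and DESeq2 called 4 of its members lower. Of 15 secondary and tertiary granule genes 2 were higher (2.99% over all genes) and none lower (median 0.15). The integrin Itgb2l (ENSMUSG00000000157, chromosome 16, 96422288 to 96443619) had 211 and 187 CPM with ZA and 22.7, 17.3 and 26.6 CPM with G-CSF (3.17 ± 0.25, adjusted p = 9.89e-05). The chitinase-like protein Chil3 had 2000 and 1650 CPM with ZA, against 550.0, 595 and 489 CPM with G-CSF (1.75 ± 0.20, adjusted p = 0.000867). Both were far apart between the groups relative to their spread. Of 14 mature neutrophil genes Mxd1, a repressor that marks late maturation, was higher (0.74 ± 0.16, adjusted p = 0.0262) and Ly6g, the neutrophil surface antigen, was lower (−0.78 ± 0.15, adjusted p = 0.0174). Neither was called without ZA replicate 2 or 3 or without G-CSF replicate 1 or 2 (adjusted p = 0.0653 to 0.188), and Mxd1 was lost also without G-CSF replicate 3 (adjusted p = 0.0557).

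Of 18 monocyte genes 3 were higher with ZA and none lower (2.99% of all genes were higher; median 0.30, against −0.01 for all genes, but −0.04 on the TPM scale against −0.27, with 1 member higher). Without ZA replicate 2, ZA replicate 3 or G-CSF replicate 2 the count was 2. Ly6c2, the surface protein that marks inflammatory monocytes (ENSMUSG00000022584, chromosome 15, 75108158 to 75111970), had 539 and 442 CPM in ZA libraries, against 68.6, 65.5 and 34.9 CPM in G-CSF libraries (3.12 ± 0.28, adjusted p = 0.000227); its near-identical neighbour Ly6c1 makes the split of reads uncertain. The fractalkine receptor Cx3cr1 had 25.1 and 27.9 CPM with ZA and 6.17, 8.23 and 6.71 CPM with G-CSF (1.91 ± 0.25, adjusted p = 0.00195). The nuclear receptor Nr4a1 was higher by 1.07 ± 0.25 (adjusted p = 0.0378). It was not called without ZA replicate 2 or 3, G-CSF replicate 1 or 2, or either untreated library (adjusted p = 0.0507 to 0.164). The M-CSF receptor Csf1r had 113 and 97.8 CPM with ZA and 73.9, 73.5 and 76.9 CPM with G-CSF, groups that do not overlap, yet it was not called (0.50 ± 0.16, adjusted p = 0.118). Irf8, a transcription factor of monocyte fate, had a log2 change of 0.83 ± 0.23 and was not called (adjusted p = 0.0735). The sum over the list was 2560 and 2300 TPM with ZA, against 2440, 2630 and 2160 TPM with G-CSF, so the groups overlapped.

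Among 15 resident macrophage genes Trem2, a lipid receptor, was higher (1.16 ± 0.28, adjusted p = 0.047) and the adhesion molecule Vcam1 lower (−0.70 ± 0.14, adjusted p = 0.0196). Trem2 was lost in each of the 9 fits without one library (adjusted p = 0.0536 to 0.193), and Vcam1 without ZA replicate 2 or 3 or G-CSF replicate 1 or 2 (adjusted p = 0.0524 to 0.127). Trem2 was also the one called gene among 14 osteoclast genes (median 0.07). In that list 3 genes were lower and none higher on both TPM scales (medians −0.15 on log2(TPM + 1) and −0.31 on log2(TPM + 0.1)) and without ZA replicate 3, and 1 was lower and none higher with DESeq2. Ctsk, the protease that digests bone collagen, had 3.45 and 10.2 CPM in ZA libraries, against 16.1, 17.9 and 22.5 CPM in G-CSF libraries (−1.45 ± 0.41, adjusted p = 0.0866). The groups do not overlap, and Ctsk was called lower with DESeq2 (adjusted p = 0.0260), with no filter on low counts (0.00105), with limma on log2(TPM + 1) (0.0154) and log2(TPM + 0.1) (0.0275), and with edgeR without ZA replicate 3 (−2.44, adjusted p = 0.0147). It was not called in the other settings, with the highest adjusted p (0.326, at −0.89) without ZA replicate 2. Acp5, the osteoclast acid phosphatase, had 74.2 and 58.8 CPM with ZA and 65.0, 55.4 and 86.1 CPM with G-CSF (−0.05 ± 0.23, adjusted p = 0.943). Of 14 dendritic cell genes Ly6d, a surface protein of lymphoid and plasmacytoid precursors, was higher, at 71.5 and 74.4 CPM with ZA and 26.7, 24.4 and 23.9 CPM with G-CSF (1.54 ± 0.18, adjusted p = 0.00111).

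Cxcl12, the chemokine that holds stem cells and neutrophils in marrow, had 74.6 and 460.0 CPM in the ZA libraries and 310.0, 316 and 393 CPM in the G-CSF libraries (−0.34 ± 0.61, adjusted p = 0.822), so the ZA libraries lay on both sides of the G-CSF range. The change was −2.19 (adjusted p = 0.00304) without ZA replicate 3 and 0.43 (adjusted p = 0.477) without ZA replicate 2. Its receptor Cxcr4 had 227 and 176 CPM with ZA, against 202, 197 and 187 CPM with G-CSF (0.04 ± 0.17, adjusted p = 0.928). Of 13 retention and mobilisation genes 1 was lower, Vcam1, and none higher. ZA replicate 2 was low in the whole stromal list, which summed to 62.3 and 189 TPM in ZA libraries and 159, 174 and 241 TPM in G-CSF libraries. Of 20 stromal niche genes 1 was lower, Vcam1, and none higher. The median was −0.33, but 0.36 without ZA replicate 2 and −1.41 without ZA replicate 3. Of 15 endothelial genes none was called (median −0.15), with a median of 0.53 without ZA replicate 2 and −1.19 without ZA replicate 3.

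All 13 megakaryocyte and platelet genes had negative changes and none was called (median −1.38, range −2.71 to −0.57). Platelet factor 4, Pf4, had 16.0 and 114 CPM in ZA libraries, against 235, 211 and 197 CPM in G-CSF libraries (−1.71 ± 0.73, adjusted p = 0.276). The list summed to 89.1 and 633 TPM with ZA and 1250, 1290 and 1680 TPM with G-CSF, so both ZA libraries were below every G-CSF library and ZA replicate 2 was far below ZA replicate 3. Without ZA replicate 3 the test called 9 of the 13 lower (median −3.35), and without ZA replicate 2 none (median −0.59). On the TPM scale 4 were lower (median −1.82). Combined libraries summed to 1950 and 1330 TPM and untreated libraries to 154 and 155 TPM.

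Of 21 erythroid genes 3 were higher with ZA and none lower (median 0.54, but 0.13 on the TPM scale with no member called; 2.99% of all genes were higher). DESeq2 called 8 higher and 1 lower. The red cell anion exchanger Slc4a1 had 3300 and 4130 CPM in ZA libraries and 1220, 1240 and 813 CPM in G-CSF libraries (1.77 ± 0.34, adjusted p = 0.0175). Epb42, a protein of the red cell membrane skeleton (1.25 ± 0.26, adjusted p = 0.0257), and Trim10 (1.11 ± 0.22, adjusted p = 0.0181) were the others. Slc4a1 was not called without any one of the 5 ZA and G-CSF libraries (adjusted p = 0.0528 to 0.0899), Epb42 without ZA replicate 2 or 3 or G-CSF replicate 1 (0.0555 to 0.168), and Trim10 without ZA replicate 2 (0.183). The beta globin Hbb-bs had 122000 and 106000 CPM with ZA, against 75300, 66700 and 46400 CPM with G-CSF (0.85 ± 0.24, adjusted p = 0.0809). It was called higher with DESeq2 (adjusted p = 0.00546), and in edgeR with no filter on low counts (0.00513) or with replicate number as a block (0.0413). On neither TPM scale was it called.

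Of 17 B lineage genes Cd22, an inhibitory receptor, was higher with ZA (29.7 and 48.1 CPM, against 15.4, 12.7 and 19.0 CPM with G-CSF; 1.31 ± 0.29, adjusted p = 0.0299) and the list's median was −0.04. Cd22 was not called without ZA replicate 3, G-CSF replicate 1 or 2, or either combined library (adjusted p = 0.0533 to 0.202). Of 152 immunoglobulin V, J and C segments tested, 31 were higher with ZA (20.4%, against 2.99% of all genes) and none lower, while the 7 plasma cell genes had none called (median −0.05). Such segments are alike in sequence and differ between strains, so their single values are uncertain. Of 20 T and NK cell genes 3 were higher, 2 of them set apart, and 3 were lower (2.99% higher and 2.07% lower over all genes). The T cell receptor chain Cd3d had 8.01 and 6.57 CPM with ZA, against 40.9, 39.0 and 30.4 CPM with G-CSF (−2.34 ± 0.22, adjusted p = 0.000291). Its partner chain Cd3e ran the other way, at 3.87 and 3.85 CPM with ZA and 0, 0 and 0.189 CPM with G-CSF, and is among the genes set apart. Cd8a (2.76 and 3.62 CPM with ZA, 0.674, 0.116 and 0.378 CPM with G-CSF) and Cd8b1 (set apart, 3.59 and 4.08 CPM with ZA) were higher as well. The cytotoxic granule protease Gzma had 6.08 and 4.64 CPM with ZA and 37.6, 40.1 and 25.7 CPM with G-CSF (−2.69 ± 0.30, adjusted p = 0.000908), and the NK receptor Ncr1 was lower by 2.15 ± 0.41 on the log2 scale (adjusted p = 0.016). Cd3d and Cd3e, chains of the same receptor complex, thus differed in opposite directions between the same libraries. However, Cd3e was set apart because of its low G-CSF levels and reached at most 3.87 CPM in these libraries. Leaving out 1 library gave 2 or 3 higher and 2 to 4 lower; the lower count was 2 without ZA replicate 2 or G-CSF replicate 1 or 2, and the higher count 2 without ZA replicate 2 or 3 or G-CSF replicate 3.

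Of 13 genes encoded by the mitochondrial genome, 9 were higher with ZA (2.99% over all genes) and none lower. All 13 encode subunits of the respiratory chain or ATP synthase, and their median change was 1.33. The complex I subunit mt-Nd5 had 867 and 1160 CPM in ZA libraries, against 265, 322 and 279 CPM in G-CSF libraries (1.81 ± 0.18, adjusted p = 0.00047). The cytochrome c oxidase subunit mt-Co1 had 6270 and 7880 CPM with ZA and 2350, 2440 and 2480 CPM with G-CSF (1.55 ± 0.17, adjusted p = 0.000683). mt-Co2 (0.08 ± 0.22) and mt-Atp6 (0.06 ± 0.22) were not called, and both have near-identical copies in the nuclear genome, as do 6 of the 13 in all. Combined libraries (633 and 508 CPM) and untreated libraries (673 and 826 CPM) lay between the treatments for mt-Nd5. On log2(TPM + 1) none of the 13 was called, at a median of 0.92 against −0.27 for all genes, and on log2(TPM + 0.1) 2 were higher, at a median of 0.93 against −0.39. Mitochondrial transcripts in all took 5.65% and 6.46% of TPM with ZA, against 3.45%, 4.16% and 4.25% with G-CSF. Their share was 6.51% and 5.35% in combined libraries and 1.78% and 3.54% in untreated libraries.

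Of 11 skeletal muscle genes, 4 were called lower with ZA (2.07% over all genes) and none higher (median −2.31). Such genes serve contraction and are not known as marrow cell genes. The list summed to 93.1 and 52.9 TPM in ZA libraries and 119, 90.5 and 82.4 TPM in G-CSF libraries, so the groups overlapped. Muscle creatine kinase, Ckm, had 1.52 and 1.02 CPM in ZA libraries, against 13.8, 8.92 and 5.67 CPM in G-CSF libraries (−2.90 ± 0.55, adjusted p = 0.0172), and 68.5 and 34.9 CPM in the combined libraries. The other called members were Acta1, Tnnt3 and, set apart, Actn3. All 4 were lost without ZA replicate 2 (adjusted p = 0.101 to 0.217) or without ZA replicate 3 (up to 0.147), Acta1, Tnnt3 and Actn3 without G-CSF replicate 1 (0.0528 to 0.0787), Acta1 and Actn3 without G-CSF replicate 2 (0.0514 and 0.0778), Acta1 without G-CSF replicate 3 (0.0517), and Actn3 without combined replicate 1 (0.055). The part of muscle RNA in other differences was not tested. No member was called in the stem and progenitor list (14 genes, median −0.09), the basophil, mast cell and eosinophil list (13, −0.08), the cell cycle list (18, 0.04) or the inflammatory list (6, 0.06). Of 11 immediate early genes Fos was higher, at 8.42 and 8.95 CPM with ZA and 1.93, 2.72 and 3.12 CPM with G-CSF (1.74 ± 0.36, adjusted p = 0.0241), and it was not called without ZA replicate 2 or 3 or G-CSF replicate 1 or 2 (adjusted p = 0.0820 to 0.105).

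**Figure D3:**
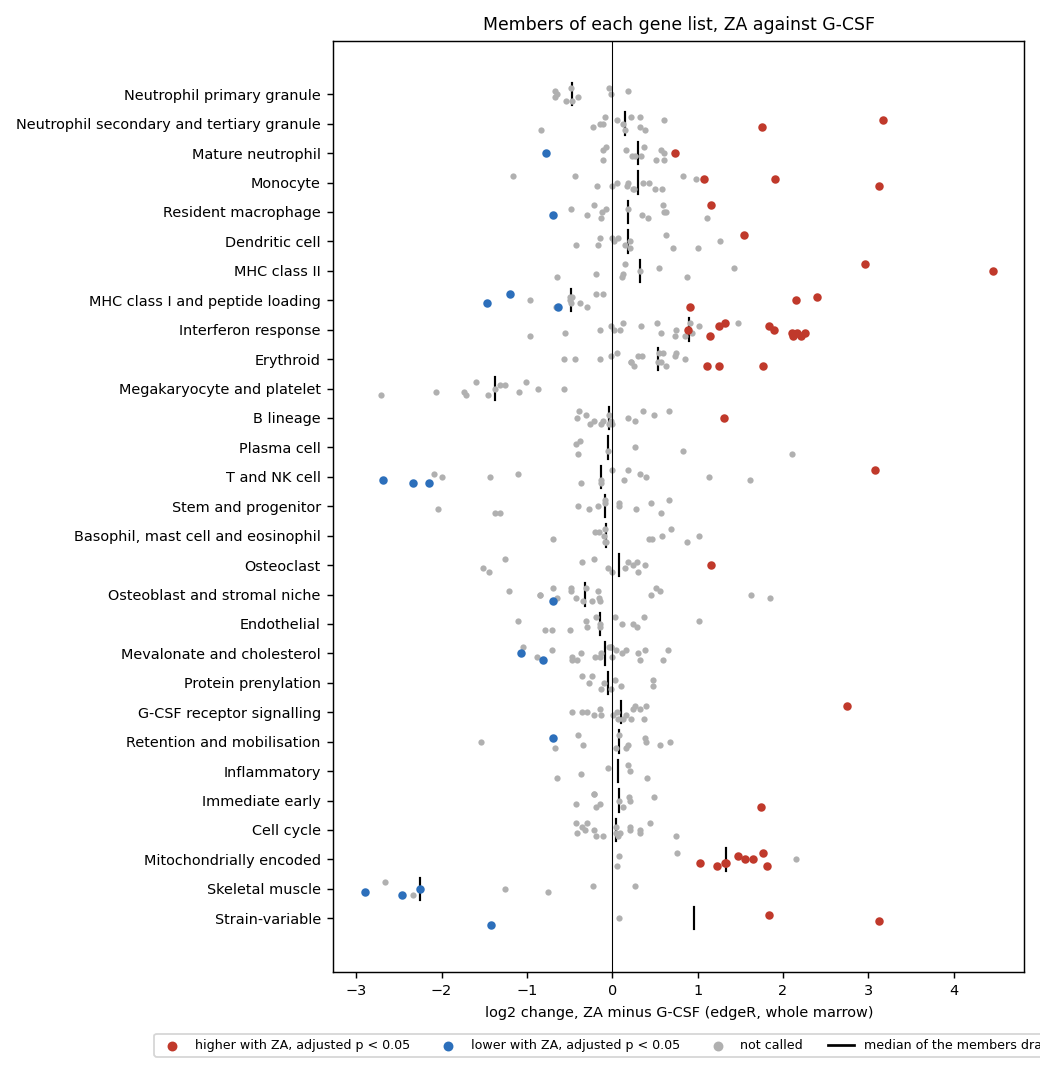
Log2 change, ZA minus G-CSF, of the tested members of each gene list, without genes set apart. Red points were called higher with ZA, blue points lower and grey points neither, and a black bar marks the median of the members drawn. Interferon response (11 higher) and mitochondrially encoded genes (9 higher) hold the most called members, and all 13 megakaryocyte and platelet genes lie left of 0 with none called.

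Many genes lower with ZA have a near-identical copy. Of the 305 lower genes, 107 (35.1%) had a protein-coding partner elsewhere that matched at 95% identity or more over at least 50% of the transcript, against 43 of the 441 higher genes (9.75%) and 878 of all 14737 tested (5.96%). Pseudogenes, apart from immunoglobulin, T cell receptor and polymorphic ones, made 103 of the lower calls and 24 of the higher calls among 680 tested. Only protein-coding genes could be partners, so a pseudogene counts through the gene it copies, but that gene does not count through the pseudogene. The shares with a partner therefore depend on how many pseudogenes each set holds. Genes set apart are included. Coding stretches of 3 pairs are shown to show how many bases separate a copy from its partner; how reads were divided between them was not tested. Each line holds the first 120 coding bases of the partner and the matching bases of the copy, 5′ to 3′, from GENCODE M21 transcripts on GRCm38, with capitals where the 2 differ.
Rps26-ps1: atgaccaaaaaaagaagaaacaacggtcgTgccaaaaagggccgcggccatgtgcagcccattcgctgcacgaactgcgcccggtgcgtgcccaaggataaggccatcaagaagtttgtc
Rps26: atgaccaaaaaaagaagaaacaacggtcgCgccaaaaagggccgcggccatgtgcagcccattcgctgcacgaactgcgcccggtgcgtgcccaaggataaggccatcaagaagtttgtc
Ly6c1: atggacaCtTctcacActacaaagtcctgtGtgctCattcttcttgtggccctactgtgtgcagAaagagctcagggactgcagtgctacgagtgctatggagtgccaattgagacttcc
Ly6c2: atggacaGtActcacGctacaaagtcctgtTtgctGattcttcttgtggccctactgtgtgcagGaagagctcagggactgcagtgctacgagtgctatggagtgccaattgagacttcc
Lyz1: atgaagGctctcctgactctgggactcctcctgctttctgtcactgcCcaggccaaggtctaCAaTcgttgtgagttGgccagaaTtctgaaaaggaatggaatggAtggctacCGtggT
Lyz2: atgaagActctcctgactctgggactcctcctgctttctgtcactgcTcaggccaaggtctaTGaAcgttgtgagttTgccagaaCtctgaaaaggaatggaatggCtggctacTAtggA
Over the whole coding sequence Rps26-ps1 (chromosome 8, 107439131 to 107439579) and Rps26 (chromosome 10, 128624534 to 128626747) differed at 2 of 345 bases, Ly6c1 and Ly6c2 at 9 of 393, and Lyz1 and Lyz2 at 22 of 444.

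Levels of some copies and their partners moved in opposite directions, while most partners were not called. Rps26-ps1, a processed copy of a ribosomal protein gene, had 1.43 and 4.89 TPM in ZA libraries, against 1660, 1540 and 1230 TPM in G-CSF libraries. Rps26 itself had 755 and 764 TPM with ZA and 89.9, 84.0 and 159 TPM with G-CSF. Rps2-ps10 had 3.03 and 2.62 TPM with ZA, against 954, 908 and 938 TPM with G-CSF, while Rps2 had 583 and 549 TPM with ZA and 15, 21.3 and 46.0 TPM with G-CSF. In both pairs the copy was high in the G-CSF libraries and the gene itself in the ZA libraries. Ly6c1 had 3.71 and 5.23 TPM with ZA, against 72.5, 84.0 and 49.2 TPM with G-CSF, and Ly6c2 averaged 362 TPM with ZA and 54.2 TPM with G-CSF. Lyz1 differed while Lyz2, the lysozyme of myeloid cells, did not: Lyz2 had 1870 and 1590 TPM with ZA and 2050, 2220 and 1790 TPM with G-CSF (0.17 ± 0.20, adjusted p = 0.702). Among 104 of the lower genes whose partner was tested, the median change was −6.28. That median includes genes set apart, whose size of change rests on ZA levels at or near 0, and none without them is given. The 91 partners of these 104 genes had a median of 0.31, with 23 called higher, 3 lower and 65 not called. Over all genes tested 2.99% were higher and 2.07% lower. Protein-coding genes that neither had such a partner nor were one numbered 12039, of which 288 were higher and 142 lower. Of all 12691 protein-coding genes tested, 334 were higher and 166 lower.

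**Figure D4:**
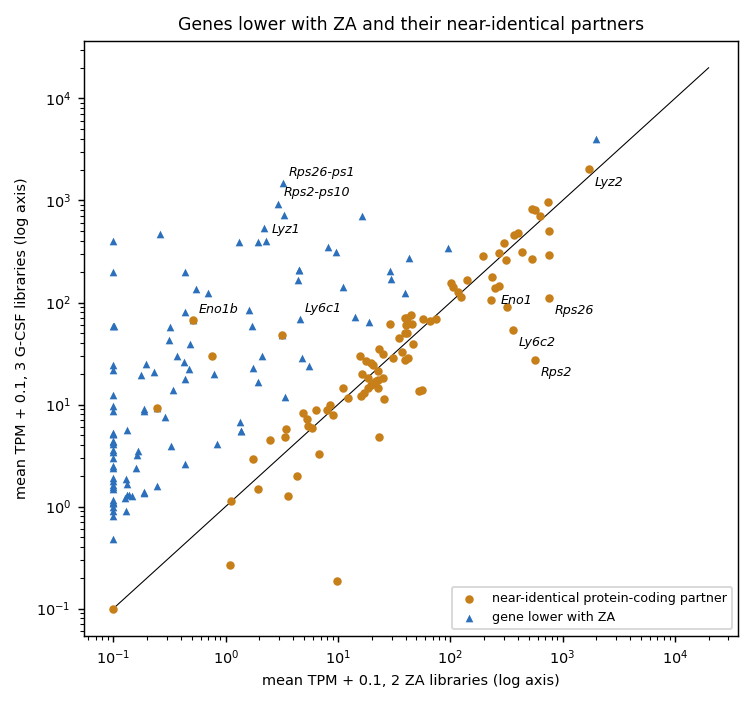
Mean TPM + 0.1 in the 2 ZA libraries against the 3 G-CSF libraries, both on log axes, for genes lower with ZA (blue triangles) and their near-identical protein-coding partners (orange circles); the line marks equal levels. Triangles lie above the line, as for Rps26-ps1, and most circles lie near it, with Rps26, Rps2 and Ly6c2 below it.

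The genes set apart are given by level, with no fold. Among 47729 genes, 25390 were at 0.1 TPM or less in all 5 libraries. A further 3062 were at that level in both ZA libraries alone, and 91 of these reached 1 TPM in all 3 G-CSF libraries. In the other direction 1491 were at that level in all 3 G-CSF libraries alone, and 70 of these reached 1 TPM in both ZA libraries. The 91 included 13 protein-coding genes, 50 pseudogenes and 23 small RNA genes, and the 70 included 7 protein-coding genes, 10 pseudogenes, 33 small RNA genes and 11 immunoglobulin or T cell receptor segments. Of the 91, 50 were also at 1 TPM or more in both combined libraries and at 0.1 TPM or less in both untreated libraries. Of the 70, 11 showed the matching pattern, low in combined and present in untreated libraries.

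The highest of the 91 were Gm6916 (0 and 0 TPM in ZA libraries, 505, 531 and 229 TPM in G-CSF libraries), Gm13394, a processed copy of Gapdh (0 and 0 against 381, 389 and 446 TPM), Gm10263, Fam166a, Topbp1-ps2 and Gm10184. Fam166a, a protein-coding gene, was at 0 TPM in both ZA libraries and at 70.9, 71.2 and 104 TPM in the G-CSF libraries. The highest of the 70 were the joining segment Ighj1 (556 and 2320 TPM in ZA libraries and 0 TPM in all 3 G-CSF libraries), Gm15526, Mir686, Gm26316, Gm27995 and Gm37665. The microRNA gene Mir686 had 396 and 391 TPM with ZA and was at 0 in the 3 G-CSF libraries. At short or repeated genes such as these a single read weighs heavily in TPM. The adaptor Eps8l1, the highest protein-coding gene of the 70, had 14.3 and 16.5 TPM with ZA, against 0, 0 and 0.0351 TPM with G-CSF.

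The combined and untreated libraries are not in the difference tested, although they share its estimate of spread, and mostly took the side of one treatment. Of the 746 called genes, both combined libraries lay nearer the G-CSF mean in 83.2%, both untreated libraries lay nearer the ZA mean in 88.3%, and all 4 did so in 74.8%. Over all genes tested these shares were 42.0%, 44.7% and 19.2%. Without the genes set apart, all 4 libraries did so in 72.9% of the 609 calls that remained from the same fit. Exceptions among the called genes named include Gzma, at 7.20 and 10.6 CPM in combined libraries, against 6.08 and 4.64 CPM in ZA libraries. For Nckipsd the combined libraries (14.4 and 18.5 CPM) also lay nearer the ZA mean on the log2 scale. Aacs, which was not called, had 21.1 and 17.2 CPM in untreated libraries, below every treated library.

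The same contrast in sorted osteoclast precursors (lineage-negative, CD115-positive marrow cells; 5 ZA and 5 G-CSF libraries of the final comparison) called none of 18954 genes with edgeR (0%, with 2551 at an unadjusted p under 0.05). None was called either without ZA replicates 5 and 7 (0 of 18365, with 1977 at an unadjusted p under 0.05). Those 2 libraries carried whole-marrow levels: Hbb-bs was at 176000 and 190000 TPM there, against 1660 to 5680 TPM in the other 3 ZA precursor libraries and 161 to 672 TPM in the 5 G-CSF ones. Untreated precursor replicate 7, which shares the estimate of spread, had Hbb-bs at 124000 TPM. With all 3 libraries left out, 206 of 19462 genes were called (1.06%), 82 higher and 124 lower, so the absence of calls depended on these libraries. Both choices were made after seeing the data, and the remaining untreated library is then assumed to vary like the other groups. Of the 635 marrow calls also tested in that fit, 6 were called in the same direction (0.945% of the marrow calls, 3.14% of the 191 precursor calls) and 5 in the opposite one. Of 24 genes examined by name, it called Lyz2 (−0.46 ± 0.08, adjusted p = 0.0266) and Mpo (0.33 ± 0.07, adjusted p = 0.0473). Several genes that divided marrow did not divide the precursors. Ifi202b and H2-Ea-ps were at 0 TPM in all 5 ZA and all 5 G-CSF precursor libraries. Nnt was at 2.11 to 9.96 TPM in ZA precursors and 8.29 to 9.20 TPM in G-CSF precursors. Eno1b was at 0 to 0.207 TPM in ZA precursors and 0 to 0.328 TPM in G-CSF precursors, Lyz1 at 0.998 to 1.67 TPM and 1.44 to 3.11 TPM, and Vill at 14.9 to 59.1 TPM and 55.9 to 95.5 TPM. Tspo2 was at 1.95 to 131 TPM in ZA precursors and 0.186 to 0.775 TPM in G-CSF precursors, without overlap, and Hbb-bs did not overlap either. In the same table, the library labelled precursor G-CSF replicate 2 in run 2, outside the final comparison, had Hbb-bs at 124000 TPM and Eno1b at 54.5 TPM. The libraries labelled whole marrow in run 2 for G-CSF replicate 2 and untreated replicate 2 had Hbb-bs at 636 and 1040 TPM and Ly6c2 at 1970 and 2260 TPM, as precursors do.

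Whole marrow of ZA replicate 2 and G-CSF replicate 2 appears again in that table. Its run 1 libraries differed from those analysed here by less than sampling noise (spread of counts at 0.287 and 0.469 times that of sampling), so they are the same libraries and add no replicate. In the second run the library labelled whole marrow ZA replicate 2 had Eno1b at 0.149 TPM, Rsad2 at 78.1 TPM and H2-Eb1 at 53.7 TPM, against 0.199, 119 and 35.9 TPM in run 1. Other genes differed between these runs: Fam166a was at 119 TPM in run 2, against 0 TPM in run 1, and Ctsk at 8.57 TPM, against 0.915 TPM. The library analysed here and that of the second run differed by a spread of 13.2 times sampling, and the second lay nearer (6.22) to untreated precursor replicate 7. Whether they are the same sample was not tested. Several precursor libraries of one treatment with different replicate numbers were as alike as, or more alike than, the runs of one sample. For example, G-CSF replicates 1 and 4 had a spread of 2.66 times sampling, and the 2 runs of G-CSF replicate 3 had 2.90. Whether all precursor libraries come from separate samples was not tested, so the precursor tests may rest on fewer samples than libraries.

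**Figure D5:**
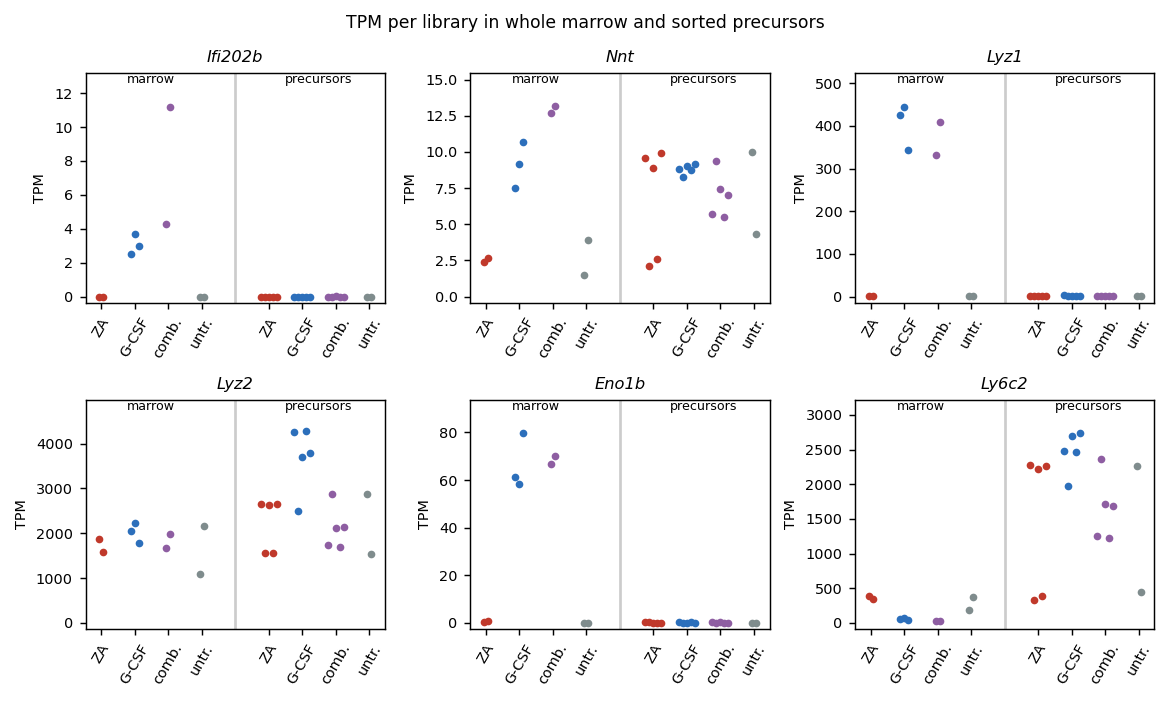
TPM of 6 genes in every library of whole marrow (left in each panel) and of the sorted precursors of the final comparison (right), with groups in the order ZA, G-CSF, combined and untreated. Ifi202b, Lyz1 and Eno1b are high in the G-CSF and combined marrow libraries and at or near 0 in all precursors, including those of G-CSF mice.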

How the data were processed

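RNA from whole mouse marrow was sequenced from libraries made with an NEB Ultra RNA kit on a HiSeq 2000, per the labels' protocols, which do not state whether strand was kept, so reads of antisense partners cannot be told apart. The deposited tables hold estimated counts per gene, made by the authors with Salmon (no version) on mm10, per the submitters' processing notes, which also name DESeq2 1.16.1; these values are not whole and carry no scaling between libraries. The deposited TPM were made by the authors from the same estimates. The annotation release is not given in the sources used here. Symbols and positions came from GENCODE M21 (99.1% of 47729 identifiers matched).

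After rounding, the counts went into edgeR 4.0.16 under R 4.3.3 (robust quasi-likelihood test, TMM, filterByExpr with a minimum count of 10), in 1 model of all 9 whole marrow libraries in 4 groups. The precursor test used 17 libraries with a term for sequencing run. The standard error is the size of the log2 change over the root of F. DESeq2 1.42.0 and limma 3.58.1 on log2(TPM + 1) and log2(TPM + 0.1) were alternatives. The edgeR script was checked on simulated counts. Copies were sought with blastn 2.17.0. The depth per library and the limit of a 0 count are in the report and cover counting error alone.

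Named genes were, for each direction, the 12 protein-coding calls of largest change with a mean of at least 5 CPM and groups that do not overlap, leaving out genes set apart, genes with Gm, Rik or locus names, and antigen receptor segments; the 6 genes set apart with the highest mean TPM; and up to 4 called members of each list plus fixed genes. Further members of lists, Lyz2 and Eps8l1 were named after their values were seen. The lists, the members and these rules were chosen with earlier results of these data known. Some members of the lists are counted but not reported here by name.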

Additional observations from a re-analysis of the deposited data

Results flagged for a closer look

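In the sorted precursors, 24 genes were examined in the ZA and G-CSF groups of 5 libraries (44 groups with any spread), and 4 times 1 library stood far from its group, where chance alone marks about 1 in 20 groups. ZA replicate 7 had H2-Eb1 at 74.6 TPM against 14.1 to 29.6 TPM in the other ZA precursors, Fam166a at 67.6 TPM against 0 to 0.0212 TPM, and Ctsk at 14.2 TPM against 0.0225 to 0.745 TPM. This is 1 of the 2 ZA precursor libraries with whole-marrow levels of Hbb-bs. G-CSF replicate 4 had Itgb2l at 1.46 TPM against 0.476 to 0.704 TPM in the other G-CSF precursors.

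Trim12a was higher with ZA in whole marrow, but in precursors each ZA library (mean 15.8 TPM) lay below each G-CSF library (19.7 to 22.1 TPM). In edgeR the precursor change was 0.13 ± 0.22 (adjusted p = 0.789), or −0.25 ± 0.15 (adjusted p = 0.622) without ZA replicates 5 and 7, so the opposite direction was seen in TPM and not in the test of all 17 libraries. The difference between the 2 contrasts was not tested.

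Eno1b was seen in precursor libraries outside the final comparison, at 54.5 TPM in G-CSF replicate 2, 13.4 TPM in G-CSF replicate 1, 31.3 TPM in combined replicate 3 and 2.14 TPM in combined replicate 1, all of run 2. Untreated precursor libraries had 0 to 0.147 TPM. In the same order, Hbb-bs was at 124000, 34000, 47700 and 2670 TPM in these G-CSF and combined libraries. In the final comparison Hbb-bs was at 161 to 672 TPM in G-CSF precursors and 400 to 4810 TPM in combined precursors. The part of whole-marrow RNA in these Eno1b values was not tested.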

How the results depend on the processing

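The counts of called genes moved with the test, the filter and the libraries: with DESeq2's Wald test they were 665 higher and 470 lower, and with no filter on low counts 1024 and 708. On log2(TPM + 0.1), 141 were higher and 360 lower (127 and 328 on log2(TPM + 1)). With protein-coding genes alone 333 were higher and 155 lower, without genes set apart 376 and 195, and among protein-coding genes with no near-identical partner, a choice made after seeing the data, 288 and 142. With the replicate number as a block the counts were 318 and 203. Deviations from the group mean correlated at r from −0.0386 to 0.112 over 9 same-numbered pairs and from −0.112 to 0.112 over 21 other pairs. In groups of 2 libraries these deviations mirror each other, so the r values cannot show whether the numbers pair the samples. Leaving out 1 library gave 194 to 501 higher and 134 to 335 lower, and where it left 1 ZA library that one is assumed to vary like the other groups. The 70 genes set apart at low G-CSF levels became 106, and the 91 at low ZA levels 157, with a limit of 0.5 TPM; leaving out 1 library gave 93 to 242 and 120 to 181. The cause of these moves was not tested, beyond the fewer samples or genes in a fit. No call of a named gene changed its direction: of 1596 values of the 90 named genes called, under other settings, 1417 were called and 179 were not, and 54 of the 90 were called under every setting tried. The share of called genes with all combined and untreated libraries on the stated sides was 77.1% to 81.6% without 1 of those libraries. Leaving 1 out drops a condition, so this share cannot fall, and the range says nothing of its stability. No ZA or G-CSF library was left out for it. The count of 0 in precursors was also 0 without any one ZA or G-CSF precursor library, but 206 without ZA replicates 5 and 7 and untreated replicate 7, an alternative chosen after seeing the data. Depth limits genes under a few CPM, such as Cd3e.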
